A study of Mus musculus with 2 samples.

Results

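Cell cycle and proliferation genes were followed in leukocytes from colorectal tumor tissue of mice, as a list of 36 genes chosen by name among the 30905 genes of the deposited count tables. The list covers the replication machinery, the enzymes that supply nucleotides, the cyclin kinases, the mitotic checkpoint, the centromere and the spindle. All 36 were present in the tables. CD45+ cells, that is leukocytes carrying the pan-leukocyte protein encoded by Ptprc, had been sorted from male C57BL/6 mice and profiled cell by cell in droplets, with 10x Genomics chemistry (3′ V3) that counts the ends of RNAs. Mice of one group were put on a fasting-mimicking diet (FMD), which is poor in calories and meant to mimic fasting, from cycle 2 of tumor induction; in the other they ate ad libitum. Every mouse in both groups was given azoxymethane, a colon carcinogen, at 12 mg/kg, and 3 cycles of dextran sodium sulfate, which injures the colon lining, at 2.5% for 7 days with 14 days of water after it. Each diet gave 1 library pooled from 4 mice. The text on extraction in the labels also names normal colon beside tumor-bearing colon, and the samples were taken as tumor from their titles. No mouse can be told from another within a library, so no difference below has a replicate check, and no test was possible.

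A cell that divides copies its DNA in S phase and separates the copies in mitosis. Replication genes are induced by E2F factors as a cell leaves G1, while most mitotic genes are transcribed later, in G2, through promoters carrying CCAAT boxes and an element called CHR. Both waves are therefore seen as partly different RNAs, and a cell rich in both has usually been caught in cycle. Among leukocytes of the gut wall, germinal center B cells are known for rapid division, activated T cells divide after antigen contact, and neutrophils leave the bone marrow after their last division. Mki67 encodes the Ki-67 protein that coats mitotic chromosomes, and Top2a encodes the topoisomerase that untangles replicated DNA. A cell was called dividing when it held at least 2 molecules (UMIs, each counting 1 captured RNA) of these genes together.

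After filtering, 4621 cells with 32023584 UMIs remained in the FMD library and 4865 cells with 33287258 UMIs in the ad libitum library, at medians of 5741 and 5506 UMIs per cell. The libraries shared 7 cell barcodes, 4 of them among kept cells. Cells were clustered without cell cycle genes, and clusters were named from marker genes. The germinal center B-like cluster had Rgs13 and Mef2b among its leading genes, with Rgs13 at 794 CPM in FMD and 519 CPM in ad libitum cells (CPM scales UMIs to the total outside immunoglobulin and mitochondrial genes). Its Cd3e, a T cell gene, lay at 5.40 and 4.09 CPM. The CD45 gene itself, Ptprc, was at 560.4 and 599.8 CPM. Brackets hold 95% intervals, binomial for shares and Poisson for UMI sums, and cover counting error only. UMIs of 1 cell are not independent, so the intervals of sums are too narrow wherever few cells hold a gene.

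Dividing cells were a small minority in both libraries, and the germinal center B-like cells had the highest share of any class in each library. By all UMIs of each cell, 199 of 4621 FMD cells were dividing (4.31% [3.74, 4.93]), against 172 of 4865 ad libitum cells (3.54% [3.03, 4.09]). The log2 ratio of the shares, FMD over ad libitum as throughout, was 0.28 [−0.02, 0.59], an interval that includes no difference. A further 265 FMD cells and 295 ad libitum cells held exactly 1 UMI, just outside the threshold. Exactly 2 UMIs were held by 90 and 80 cells, just inside it. The same count in cells thinned to 1000 UMIs gave 26 of 4552 (0.571% [0.373, 0.836]) and 22 of 4771 (0.461% [0.289, 0.697]), with 69 FMD and 94 ad libitum cells left out as too shallow. The ratio there was 0.31 [−0.57, 1.197], so a difference between the diets was not detectable at this depth.

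In germinal center B-like cells 57 of 77 FMD cells (74.0% [62.8, 83.4]) and 24 of 49 ad libitum cells (49.0% [34.4, 63.7]) were dividing. FMD cells of this class were also deeper, at a median of 16038 UMIs against 14318. At 1000 UMIs each, 18 of 77 FMD cells (23.4% [14.5, 34.4]) and 10 of 49 ad libitum cells (20.4% [10.2, 34.3]) still passed, a ratio of 0.20 [−0.996, 1.47]. The libraries thus lay closer at equal depth, where the intervals overlap almost wholly and the counts are small. The class has 49 cells in the ad libitum library, under the 50 otherwise asked of a class whose levels are compared. It was kept because most FMD UMIs of many members lie in it. Plasma-like cells, with 32 in FMD, are also under 50, and no ratios of their member levels are given.

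**Figure D1:**
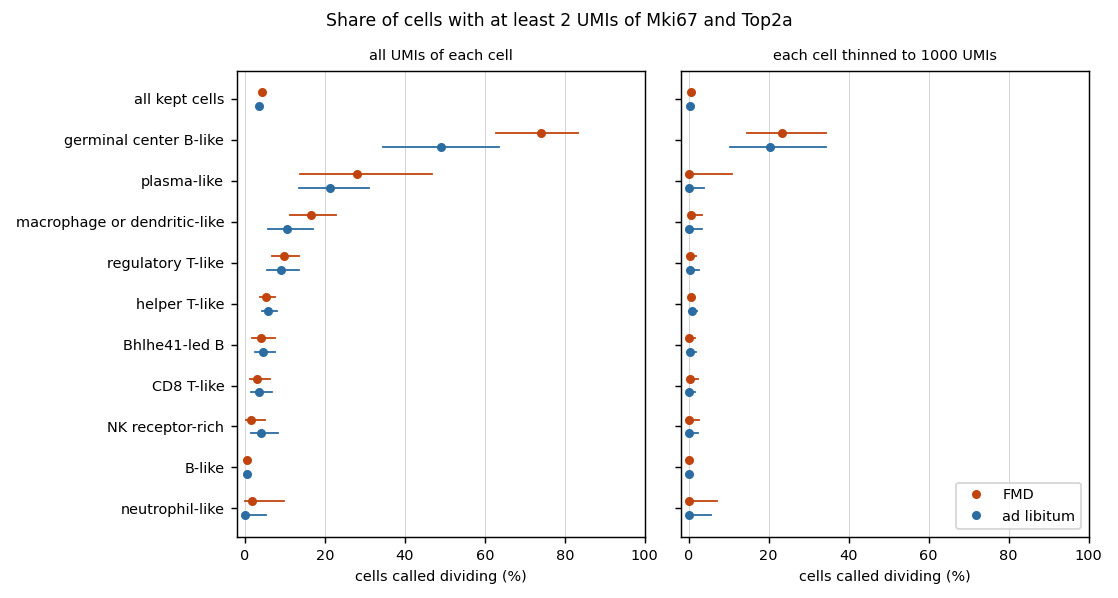
Share of cells with at least 2 UMIs of Mki67 and Top2a (horizontal axis, percent) in all kept cells and in 10 cell classes (vertical axis), with all UMIs of each cell on the left and with cells thinned to 1000 UMIs on the right; points are libraries and lines are 95% binomial intervals. Germinal center B-like cells reach 74.0% and 49.0% on the left and 23.4% and 20.4% on the right, while every other class on the right lies below 1%.

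Outside the germinal center, the highest shares by all UMIs were in plasma-like and macrophage or dendritic-like cells, whose cells were also among the deepest; the part of depth in them was not tested beyond the thinned counts. Plasma-like cells, which secrete antibody, had medians of 40722 and 38032 UMIs and 9 of 32 FMD (28.1%) and 20 of 94 ad libitum cells (21.3%) called dividing. None of them passed at 1000 UMIs, which allows shares of up to 9.38% and 3.23%. Macrophage or dendritic-like cells gave 29 of 176 (16.5%) and 14 of 133 (10.5%), and at 1000 UMIs 1 of 166 and 0 of 111. Thinned to 1000 UMIs outside immunoglobulin and mitochondrial genes, plasma-like cells gave 1 of 32 and 0 of 92, and macrophage or dendritic-like cells 0 of 166 and 3 of 109, so neither order of the libraries is read. Regulatory T-like cells, marked by Foxp3, gave 31 of 321 (9.66% [6.66, 13.4]) and 20 of 224 (8.93% [5.54, 13.5]). Helper T-like cells gave 33 of 614 (5.37% [3.73, 7.47]) and 37 of 631 (5.86% [4.16, 7.99]). In both T cell classes the intervals of the libraries overlap widely.

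Among helper T-like cells the clusters differed in their share of dividing cells. The cluster led by Ccl20, Tnfsf11 and Il17f held 20 of 240 FMD cells (8.33%) and 26 of 287 ad libitum cells (9.06%) as dividing. The cluster led by Igfbp4 and Lef1, genes typical of naive T cells, held 1 of 167 and 2 of 159. The third cluster, led by Izumo1r, Tnfsf8 and Tox2, held 12 of 207 (5.80%) and 9 of 185 (4.86%). CD8 T-like cells had 6 of 85 and 7 of 110 in the cluster led by Ccl5, Ifng and Eomes and 1 of 138 and 1 of 121 in the one led by Dapl1. B-like cells, the most numerous class, had 13 of 2510 (0.518%) and 16 of 2758 (0.580%). Neutrophil-like cells served as background from free RNA, with 1 of 54 FMD cells (1.85% [0.0469, 9.89]) and 0 of 68 ad libitum cells, which allows up to 4.41% (3 cells of the total, the limit used for every count of 0). Their median depth was 3673 and 3891.5 UMIs, below that of B-like cells (5107 and 4946.5). The B-like shares lie within the interval of the FMD neutrophil-like share and under the limit for the ad libitum one, so they cannot be told apart from background, which rests on 1 cell. The same holds for CD8 T-like (3.14% and 3.46%) and NK receptor-rich cells (1.43% and 3.92%). The FMD interval also holds the FMD shares of helper T-like and regulatory T-like cells. This background therefore separates few classes and does not single out B-like cells. A shallow unnamed cluster led by hemoglobin genes, with medians of 1537 and 1053 UMIs, had 2 of 108 FMD and 8 of 115 ad libitum cells called.

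The other members were not used in the call and were read beside it, from UMIs of the same cells. A UMI of Cdk1, the mitotic kinase, or of its partners Ccna2, Ccnb1 and Ccnb2 was present in 47 of 57 dividing FMD germinal center B-like cells (82.5%) and in 19 of 24 ad libitum ones (79.2%). Cells of the class that were not called held one in 6 of 20 and 9 of 25. In helper T-like cells, 8 of 33 and 7 of 37 called cells had such a UMI, against 11 of 581 and 7 of 594 of the others. In macrophage or dendritic-like cells only 2 of 29 and 1 of 14 called cells had one. Among called B-like cells the numbers were 1 of 13 for FMD and 2 of 16 for ad libitum. Called cells were deeper than the rest of their class, for instance 17544 against 12016 UMIs at the median in FMD germinal center B-like cells. How much of the gain in cyclin UMIs follows from that depth was not tested. In dividing germinal center B-like cells a Cd3e UMI was found in 3 of 57 FMD and 2 of 24 ad libitum cells, and an Rgs13 UMI in 53 and 22 of them. In dividing macrophage or dendritic-like cells a UMI of Lyz2, a myeloid gene, was found in 15 of 29 FMD and 5 of 14 ad libitum cells, and one of Foxp3 in 4 and 0. The part of cells of other types in these calls was not tested.

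The levels of the members were compared in the same way. Of the 34 members besides Mki67 and Top2a, 33 in FMD and 34 in ad libitum germinal center B-like cells were higher in dividing than in other cells, with median log2 differences of 3.27 and 2.58. In helper T-like cells all 34 were higher in both libraries, with medians of 3.45 and 3.79. In regulatory T-like cells 32 and 31 were higher, and in macrophage or dendritic-like cells 29 of the 32 and 22 of the 28 with a UMI. In plasma-like cells 28 of the 30 and 33 of the 34 with a UMI were higher. Other classes with few called cells were less uniform. There, a member with 0 UMIs in the called cells counts as not higher, although few cells can miss a sparse RNA. In ad libitum B-like cells, with 16 called, such members were so many that the median log2 difference is not finite. The counts of these classes are therefore not read as a lack of member RNA. B-like cells had 17 of 34 and 9 of 32 higher, and Bhlhe41-led B cells 12 of 31 and 20 of 28. CD8 T-like cells had 28 of 33 higher in FMD but 13 of 30 in ad libitum cells. Cenpa, the histone that marks the centromere, was the exception among germinal center B-like FMD cells, at 189.7 CPM in dividing and 190.8 CPM in other cells. Cdk1 had 109 UMIs in dividing FMD germinal center B-like cells and 0 in the others, and 71 and 1 UMIs in the ad libitum cells. Cenpf, a kinetochore protein of late G2, had 147 and 0 UMIs in FMD cells and 70 and 0 in ad libitum cells.

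Members fell along a range from those found almost only in dividing cells to those present everywhere. At one end, Ccna2 had 97.4% of its FMD UMIs and 95.7% of its ad libitum UMIs in dividing cells. Birc5, the survivin subunit that guides Aurora B, had 91.8% and 85.4% there. At the other end were Cenpa (9.22% and 6.30%), Hmgb2, a chromatin bending protein (23.2% and 14.7%), and Pcna, the ring that holds DNA polymerase on its template (25.5% and 15.1%). The MCM genes, which encode the replicative helicase, lay between these ends, such as Mcm2 at 31.7% and 20.3% and Mcm5 at 59.1% and 40.3%. Cenpa UMIs lay mostly in B-like cells, 51.8% in FMD and 56.2% in ad libitum cells. That class also made up most of the kept cells (2510 of 4621 and 2758 of 4865). Between dividing and other cells of a class Cenpa had no common direction: the log2 difference was −0.01 in FMD and 0.62 [0.10, 1.17] in ad libitum germinal center B-like cells, 0.31 and 0.58 [0.20, 0.95] in helper T-like cells, and 0.09 and −0.26 in regulatory T-like cells.

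**Figure D2:**
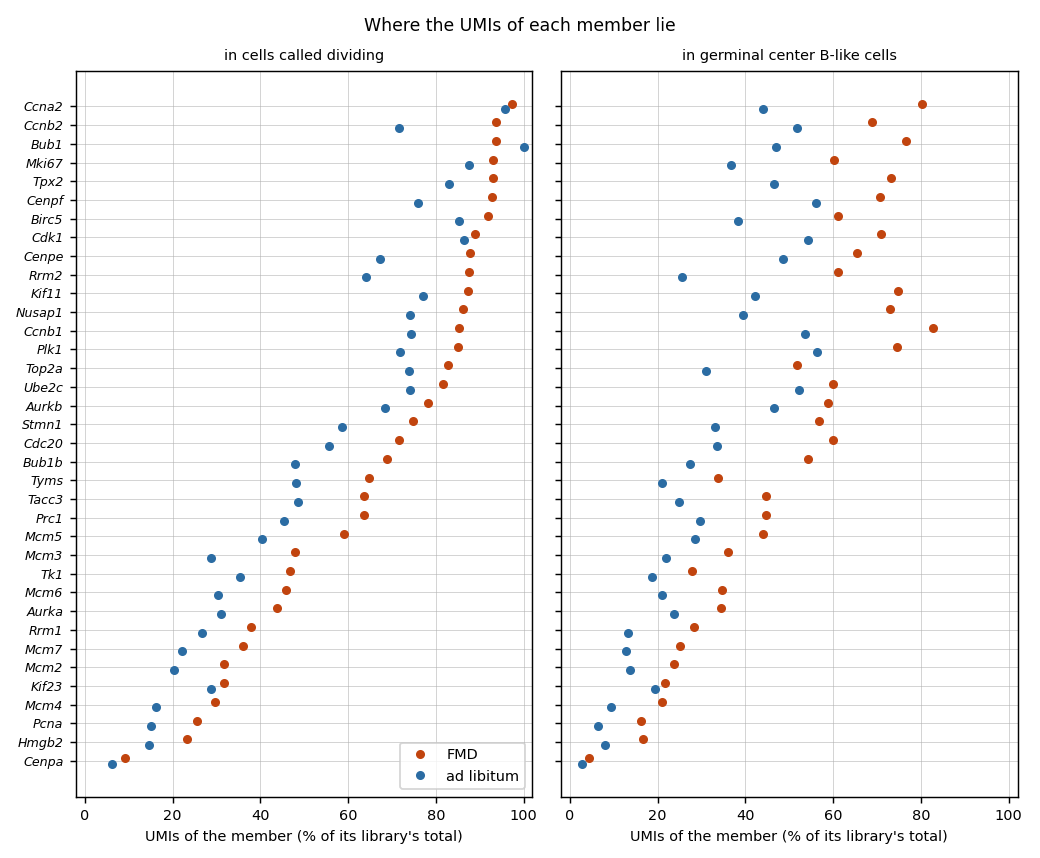
Percent of each member's UMIs per library (horizontal axis) that lie in cells called dividing (left) and in germinal center B-like cells (right), with members on the vertical axis ordered by the FMD share in dividing cells. On the left Cenpa is lowest at 9.22% and 6.30%; the highest is Ccna2 at 97.4% in FMD cells and Bub1 at 100% in ad libitum cells, and on the right every FMD point lies to the right of its ad libitum point. Mki67 and Top2a define the dividing cells, so their points on the left are fixed by the rule.

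The promoters of 4 members are shown because they hold different combinations of the E2F, CCAAT and CHR elements named in the textbook account; they were chosen after the matches had been seen. RefSeq sequences (GRCm38.p6) of the 250 bases before the transcription start were at hand for 31 members. The searched letters were CCAAT for the CCAAT box, TTTGAA or TTCGAA for CHR, and TTTGGCGC, TTTGCCGC, TTTCGCGC or TTTCCCGC for E2F, on both strands. CCAAT was in 26 of 31 (83.9%), against 34.5% of 27025 promoters of the same length. CHR letters were in 11 (35.5%), against 17.4% of all, and E2F letters in 4 (12.9%), against 1.91%. The 4 were Cdk1, Mcm5, Mcm6 and Mcm7. No searched motifs of different kinds overlapped in the 31, but matches of the same kind overlap each other in Mcm5 and Mcm6 (E2F) and in Ube2c (CCAAT). Capitals below mark all matches, which are descriptions of letters and not of bound sites, in the direction of transcription from 5′ to 3′.
Mcm6 (helicase subunit; chr1:128359706-128359955, minus strand): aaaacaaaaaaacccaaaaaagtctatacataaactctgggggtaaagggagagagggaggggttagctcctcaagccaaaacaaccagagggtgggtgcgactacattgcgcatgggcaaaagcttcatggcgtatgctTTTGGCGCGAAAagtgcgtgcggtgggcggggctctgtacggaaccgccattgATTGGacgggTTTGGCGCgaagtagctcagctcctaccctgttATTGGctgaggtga
Cdk1 (mitotic kinase; chr10:69352913-69353162, minus strand): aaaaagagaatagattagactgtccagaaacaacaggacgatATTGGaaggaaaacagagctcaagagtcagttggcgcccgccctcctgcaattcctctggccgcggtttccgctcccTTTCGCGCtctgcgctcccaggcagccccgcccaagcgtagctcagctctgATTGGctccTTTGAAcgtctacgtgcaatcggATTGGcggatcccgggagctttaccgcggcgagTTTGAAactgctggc
Cdc20 (activator of the anaphase-promoting complex; chr4:118437344-118437593, minus strand): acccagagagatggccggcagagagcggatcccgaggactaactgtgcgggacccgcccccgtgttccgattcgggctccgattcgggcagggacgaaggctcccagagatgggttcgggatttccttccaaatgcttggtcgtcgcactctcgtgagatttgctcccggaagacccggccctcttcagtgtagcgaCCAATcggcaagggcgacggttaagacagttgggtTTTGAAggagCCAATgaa
Top2a (topoisomerase; chr11:99024190-99024439, minus strand): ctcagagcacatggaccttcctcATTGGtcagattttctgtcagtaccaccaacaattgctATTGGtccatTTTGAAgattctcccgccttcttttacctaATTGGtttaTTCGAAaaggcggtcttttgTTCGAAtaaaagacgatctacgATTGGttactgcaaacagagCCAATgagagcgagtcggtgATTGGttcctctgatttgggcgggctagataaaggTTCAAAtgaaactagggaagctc
The Mcm6 promoter holds E2F and CCAAT letters and no CHR, while the Cdc20 and Top2a promoters hold CCAAT and CHR and no E2F. Cdk1 holds all 3 kinds. The 31 promoters do not divide by phase as these 4 do. CHR letters also stand in the replication genes Mcm2 and Mcm7 and not in mitotic members such as Ccnb1, Plk1, Aurka, Cenpe and Cenpf. E2F letters are missing from Mcm2, Mcm3, Pcna, Rrm1, Rrm2, Tk1 and Tyms. Of their UMIs, 45.9% and 30.3% for Mcm6, 89.0% and 86.5% for Cdk1, 71.7% and 55.7% for Cdc20, and 82.8% and 73.8% for Top2a lay in dividing cells of the FMD and ad libitum libraries. Top2a is part of the dividing call, so its share is fixed in part by the rule.

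Summed over all kept cells, most members were somewhat higher in the FMD library, and the excess lay in the germinal center B-like cells. That class was itself larger in the FMD library, at 77 of 4621 cells against 49 of 4865. Outside immunoglobulin and mitochondrial genes it held 1295574 of 29449818 FMD and 733606 of 29430743 ad libitum UMIs. How much of the excess follows from the size of the class was not tested. Of the 34 members with at least 100 UMIs over both libraries, 30 had a log2 ratio above 0, with a median of 0.28 against 0.0069 over all 10648 genes that passed the same minimum. Plk1, a mitotic kinase, and Bub1, a checkpoint kinase, did not reach it, at 47 and 64 UMIs in FMD and 32 and 34 UMIs in ad libitum cells. At least 1.5-fold higher were 2 members, Cenpe and Cenpf, and none was as much lower; over all genes 2.24% were that much higher and 1.62% that much lower. The members' UMIs came to 0.148% of FMD and 0.133% of ad libitum UMIs outside immunoglobulin and mitochondrial genes. The summed ratio was 0.16, below the median ratio because Hmgb2 and Cenpa make up most of the sum.

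Mki67 and Top2a, the markers of proliferation, were both higher. Mki67 (GRCm38 chr7:135689784-135716361, minus strand) had 1047 UMIs in 217 FMD cells (35.6 CPM) and 699 UMIs in 196 ad libitum cells (23.8 CPM), a ratio of 0.58 [0.44, 0.72]. Top2a (chr11:98992943-99024189, minus strand) had 1118 UMIs in 343 FMD cells and 795 in 331 ad libitum cells, 0.49 [0.36, 0.62]. About as many cells thus carried these RNAs in each library, with more UMIs in total in the FMD library. Outside the germinal center B-like class, Mki67 had 416 UMIs in 158 FMD cells and 442 in 168 ad libitum cells. Top2a had 540 in 295 and 548 in 306 cells there, so UMIs per carrying cell were about level outside that class. Over all kept cells, each thinned to 1000 UMIs, Mki67 was at 0.25 and Top2a turned to −0.28. Of the UMIs without thinning, germinal center B-like cells held 60.3% in FMD and 36.8% in ad libitum cells for Mki67, and 51.7% and 31.1% for Top2a.

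Among replication genes all 7 had a ratio above 0. Mcm5 was at 929 and 714 UMIs (0.38 [0.24, 0.52]), Mcm3 at 1337 and 1111 (0.27), Mcm4 at 1014 and 849 (0.26), Mcm6 at 1227 and 1047 (0.23), Mcm7 at 1291 and 1109 (0.22) and Mcm2 at 1082 and 1002 (0.11), while Pcna was at 2977 and 2809 (0.08). Enzymes that make deoxynucleotides were near these: Rrm1, the large subunit of ribonucleotide reductase, was at 699 and 534 UMIs (0.39), and Rrm2, its small subunit, at 332 and 314 (0.08 [−0.15, 0.31]). Tyms, which makes thymidylate, was at 343 and 272 (0.33), and Tk1, which salvages thymidine, at 244 and 235 (0.05). None of these members reached 1.5-fold.

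The mitotic members differed more among themselves. Ccnb1 had 122 UMIs in FMD and 82 in ad libitum cells (0.57), and Ccnb2 177 and 137 (0.37). Cdk1 had 154 and 133 (0.21) and Ccna2 152 and 139 (0.13, or 0.45 without the top cell of each library). Aurka, the kinase of the spindle poles, was the lowest member, at 64 and 84 UMIs (−0.39 [−0.89, 0.09]). Aurkb, which corrects faulty attachments, was at 129 and 101 (0.35), and its partner Birc5 at 304 and 212 (0.52 [0.26, 0.78]). Bub1b, of the spindle checkpoint, was level at 116 and 117 (−0.01), and Bub1 was at 64 and 34. Cdc20 was at 152 and 167 (−0.14), and Ube2c, the ubiquitin-carrying enzyme of the same complex, at 255 and 182 (0.49).

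Cenpe (chr3:135212537-135273611, plus strand), the kinesin that moves chromosomes to the spindle middle, had 245 UMIs in 74 FMD cells and 128 UMIs in 65 ad libitum cells, 0.94 [0.62, 1.26]. Cenpf (chr1:189640606-189688086, minus strand) had 208 UMIs in 48 FMD cells and 125 UMIs in 43 ad libitum cells, 0.73 [0.41, 1.07]. A single FMD cell held 29.8% of the Cenpf UMIs, and without the top cell of each library Cenpf was at 0.46 and Cenpe at 1.09. In thinned cells, where 13 members kept 100 UMIs, none of the 13 was 1.5-fold apart; below that minimum Cenpe was at 0.83 and Cenpf at 0.41. Cenpa differed little, at 5674 and 5448 UMIs (0.06 [0.00, 0.11]). Of the spindle genes, the motor that pushes the poles apart, Kif11, was at 0.39, and the motor of the midzone, Kif23, at 0.28. Nusap1 and Tpx2, which promote microtubule assembly, were at 0.54 and 0.33. Prc1, which bundles midzone microtubules, was at −0.05, and Tacc3, which strengthens spindle fibers, at 0.21. Stmn1, which destabilizes microtubules, had 2057 UMIs in 509 FMD cells and 1484 in 517 ad libitum cells (0.47 [0.37, 0.57]), and Hmgb2 18762 and 17926 (0.06).

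**Figure D3:**
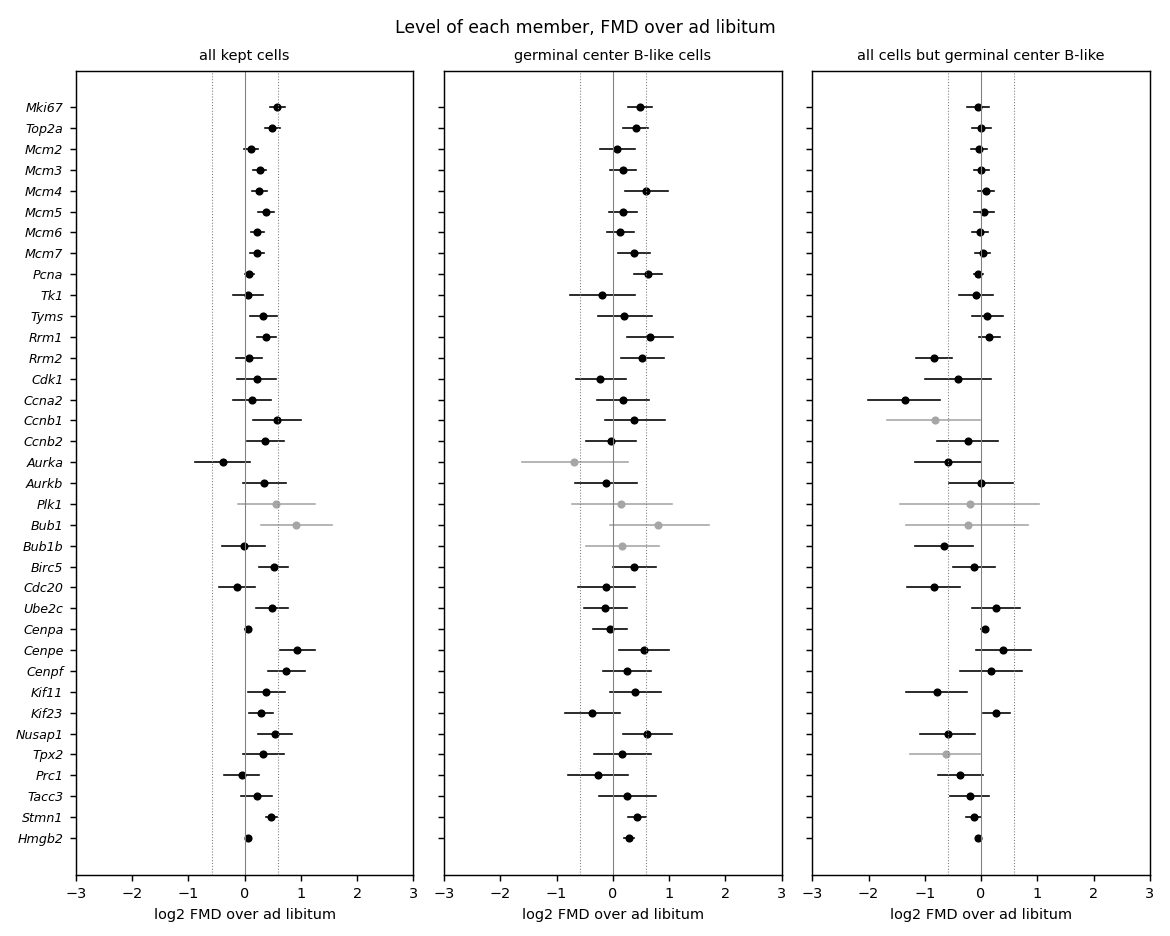
Log2 ratio of each member's level, FMD over ad libitum (horizontal axes), in all kept cells, in germinal center B-like cells and in all other cells; points are ratios, lines 95% counting intervals, gray marks members under 100 UMIs, and dotted lines 1.5-fold. The points lie mostly right of 0 in all kept cells (median 0.28) and about evenly on both sides without the germinal center B-like class (median −0.05).

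Without the 77 FMD and 49 ad libitum germinal center B-like cells, 32 members passed the minimum, 13 of them were above 0 and the median was −0.05, against −0.0037 over 10540 genes. Mki67 was then at 416 and 442 UMIs (−0.06 [−0.26, 0.14]) and Top2a at 540 and 548 (0.01 [−0.17, 0.18]). None was 1.5-fold higher (2.05% of genes were) and 6 were as much lower (1.70% of genes were). Those 6 were Ccna2 (30 and 78 UMIs, −1.35), Cdc20 (61 and 111, −0.84), Rrm2 (129 and 234, −0.83), Kif11 (46 and 81, −0.79), Bub1b (53 and 85, −0.65) and Nusap1 (61 and 94, −0.60). Part of these UMIs lay in plasma-like cells, which were 32 in the FMD and 94 in the ad libitum library. They held 3 FMD and 45 ad libitum UMIs of Ccna2, 2 and 34 of Cdc20, and 28 and 50 of Rrm2. For Kif11 they held 1 and 9, and for Bub1b and Nusap1 3 and 21 each. How much of the lower levels follows from the size of that class was not tested. Of all ad libitum Ccna2 UMIs, germinal center B-like cells included, plasma-like cells held 32.4% and a single cell 25.2%. For Rrm2, a single cell held 16.2% on the same basis. This comparison was added after the germinal center values had been seen.

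The germinal center B-like cells had the highest member levels in both libraries. Members were 0.851% of their FMD and 0.698% of their ad libitum UMIs outside immunoglobulin and mitochondrial genes. Within the class 32 members passed, with a median ratio of 0.23 and 23 above 0. At least 1.5-fold higher were 4 (2.19% of the 3286 genes that passed were), namely Rrm1 (197 and 71 UMIs; 152 and 96.8 CPM; 0.65), Pcna (484 and 178; 374 and 243 CPM; 0.62), Nusap1 (164 and 61; 0.61) and Mcm4 (212 and 80; 164 and 109 CPM; 0.59). None was 1.5-fold lower (1.73% of genes were). In thinned cells only 1 member of the class kept 100 UMIs; Pcna was then at 0.03, Rrm1 at 0.22 and Mcm4 turned to −0.65. Mki67 was at 487 CPM in FMD and 350 CPM in ad libitum cells (0.48 [0.26, 0.69]). Among the members on the other side of 0 were Cdk1 (84.1 and 98.1 CPM, −0.22), Cdc20 (70.2 and 76.3 CPM, −0.12), Ube2c (118 and 129.5 CPM, −0.13) and Kif23 (66.4 and 85.9 CPM, −0.37). Above 0 were 4 of 6 spindle, 2 of 3 centromere and 3 of 4 nucleotide members. The summed S phase members were at 2451 and 1985 CPM and the mitotic ones at 1818 and 1673 CPM, both higher in FMD cells. S phase members made up 57.4% [56.1, 58.7] of the S phase and mitotic member UMIs in FMD cells of this class. In ad libitum cells they made up 54.3% [52.4, 56.2], and the intervals just overlap.

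**Figure D4:**
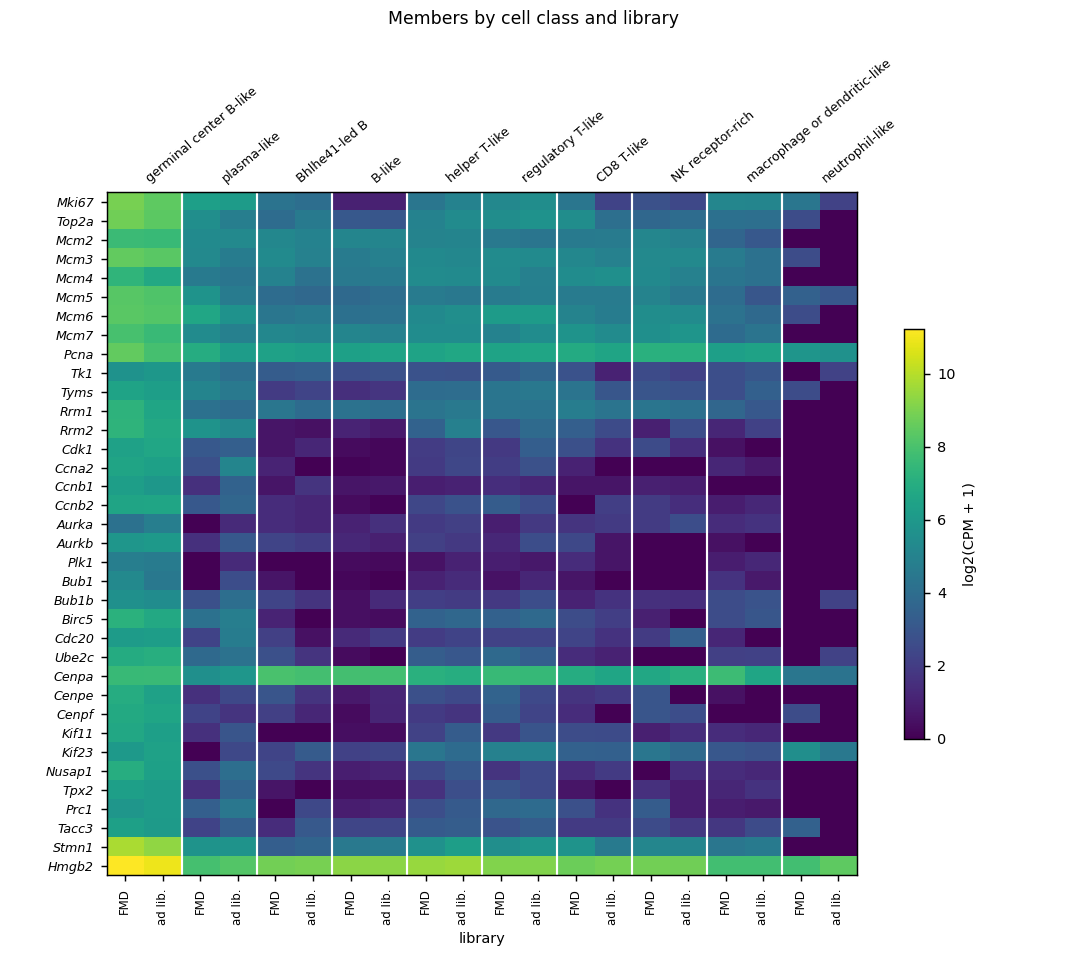
Level of each member as log2(CPM + 1) (color) in 10 cell classes, with the FMD library left and the ad libitum library right of each pair; rows run from the dividing markers through S phase to mitosis. The germinal center B-like columns are brightest in nearly every row, Hmgb2, Cenpa and Pcna are bright in most classes, and most mitotic rows, Kif23 and Cenpa aside, are dark in neutrophil-like cells.

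In helper T-like cells 17 members passed, with a median of −0.11 and none 1.5-fold higher (1.09% of 6811 genes were). As much lower were 2 (1.51% of genes were), Rrm2 with 47 UMIs in 17 FMD cells and 127 UMIs in 23 ad libitum cells (−1.42 [−1.93, −0.92]), and Stmn1 with 220 UMIs in 88 FMD cells and 340 in 68 ad libitum cells (−0.61 [−0.86, −0.36]). Without the top cell of each library Rrm2 was at −1.06, and with cell cycle genes kept in the clustering Stmn1 turned to 0.37. Mki67 was at 20.5 and 30.6 CPM (−0.58 [−0.98, −0.18]) and Top2a at 30.5 and 42.0 CPM (−0.46). In regulatory T-like cells 11 members passed, the median was −0.01, and none passed 1.5-fold in either direction (2.86% of genes were higher and 2.05% lower).

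CD8 T-like cells showed the highest ratios, in few cells. Of 9 members that passed, 2 were 1.5-fold higher (1.66% of genes were) and none as much lower (2.07% of genes were). These were Top2a with 79 UMIs in 21 FMD cells and 30 UMIs in 21 ad libitum cells (1.44) and Stmn1 with 95 in 21 and 43 in 29 cells (1.19). Without the top cell of each library these were 0.38 and 0.00, so 1 cell per library decided both. With cell cycle genes kept in the clustering Stmn1 turned to −0.23. Macrophage or dendritic-like cells had 4 members passing, of which Cenpa was higher, at 484 UMIs in 112 of 176 FMD cells and 139 UMIs in 56 of 133 ad libitum cells (207 and 96.5 CPM; 1.10 [0.83, 1.38]). Of all genes there, 4.48% were 1.5-fold higher and 4.85% lower. Mki67 in that class was level at 34.6 and 33.3 CPM (0.06), and Cenpf had 0 UMIs in both libraries. S100a8, a neutrophil gene, was at 2.57 CPM in its FMD and 421 CPM in its ad libitum cells; its part in the Cenpa difference was not tested. In B-like cells 14 members passed, with a median of −0.02 and none past 1.5-fold (0.781% of genes were higher and 0.628% lower). Bhlhe41-led B cells had 6 members passing, with a median of 0.14 and none past 1.5-fold (0.701% of genes were higher and 2.15% lower). NK receptor-rich cells had 4, Mcm7 (−0.28), Pcna (0.03), Cenpa (−0.34) and Hmgb2 (0.04), none past 1.5-fold (3.88% of genes were higher and 1.66% lower). In neutrophil-like cells 1 member passed, Hmgb2, at 45 UMIs in 26 FMD cells and 96 UMIs in 42 ad libitum cells (229.7 and 350.4 CPM), 1.5-fold lower at −0.61 [−1.15, −0.08]; of 627 genes 7.34% were as much lower and 9.89% higher.

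Germinal center B-like cells were 57 of 199 dividing FMD cells (28.6%) and 24 of 172 ad libitum cells (14.0%), and at 1000 UMIs 18 of 26 (69.2% [48.2, 85.7]) and 10 of 22 (45.5% [24.4, 67.8]), intervals that overlap. With cell cycle genes kept in the clustering the thinned shares were 92.3% and 86.4%. Helper T-like cells were 16.6% and 21.5%, regulatory T-like cells 15.6% and 11.6%, macrophage or dendritic-like cells 14.6% and 8.14%, and plasma-like cells 4.52% and 11.6% of them without thinning. Within all dividing cells 33 members passed, with a median of 0.16 and 2 past 1.5-fold, Cenpe (0.81) and Mcm4 (0.63), both higher (3.85% of 5942 genes were, and 4.09% were lower).

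Other genes of the cycle outside the 36 were described in the same way over all kept cells. Over all genes 2.24% were 1.5-fold higher and 1.62% lower. Of 34 other S phase genes that passed, 7 were 1.5-fold higher and none lower, with a median of 0.22. The highest were Pclaf, a partner of Pcna (1064 and 486 UMIs, 1.13), Cdc6, which loads the helicase (0.84), and Cdc45, which activates it (0.82), and among the lowest were Gins3 (−0.10) and Cdt1 (−0.08). Of 39 other G2 and mitotic genes, 3 were higher and none lower, with a median of 0.17. The highest were Gas2l3 (253 and 117 UMIs, 1.11), Esco2 (0.64) and Nek2 (0.60), and the lowest Aspm (−0.18), Ckap2 (−0.09) and Cks2 (−0.09). Among E2F, RB, MuvB and FoxM1 genes 3 of 18 were higher, Mybl2 (123 and 63 UMIs, 0.96), E2f8 (0.74) and E2f1 (0.59), with Lin9 (−0.21), Tfdp2 (−0.14) and Rbl2 (−0.12) lowest and a median of 0.03. By class, the S phase list had medians of 0.21 in germinal center B-like and 0.13 in Bhlhe41-led B cells. It was at −0.05 in B-like, −0.13 in helper T-like, −0.06 in regulatory T-like and −0.04 in macrophage or dendritic-like cells. In the same order, the G2 and mitotic list was at 0.22, −0.15, 0.05, −0.06, 0.04 and 0.13. The E2F list was at 0.46, 0.25, −0.06, −0.15, 0.31 and 0.40. These medians rest on few genes in some classes. In the same order, 6, 5, 12, 9, 5 and 4 genes of the E2F list passed. Of the S phase list 26, 10, 23, 22, 10 and 4 passed, and of the G2 and mitotic list 22, 6, 15, 15, 8 and 6. The next lists are again over all kept cells.

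G1 cyclins and their kinases, which act before S phase, had a median of 0.06 over 9 genes, none past 1.5-fold. Ccne2 (0.46), Cdk6 (0.36) and Ccne1 (0.18) were highest and Cdc25a (−0.17), Ccnd3 (−0.09) and Ccnd2 (−0.05) lowest. Of 13 inhibitors and antiproliferative genes, Cdkn2a, which encodes p16 and p19Arf, was lower at 21 FMD and 112 ad libitum UMIs (−2.42). Klf2 and Btg2, known from resting lymphocytes, were at −0.33 and −0.29. Cdkn1a, which encodes p21, was at 2472 and 1721 UMIs (0.52), with Cdkn1c (0.28) and Tob1 (0.03) next.

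Of 43 replication histone genes that passed, a list added to these 5, 1 was 1.5-fold higher and none lower, 19 were above 0 and the median was −0.01.

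Genes outside the 36 and the 5 lists were also higher in dividing germinal center B-like cells, the class with the most dividing cells. Over both libraries the 10 highest were Ccl3, Kif15, Hist1h2ap, Cenpw, Hist1h1b, Ncapg2, Hist1h2ae, Atad5, Cep55 and Tcf19. Hist1h2ap, Hist1h1b and Hist1h2ae encode histones made in S phase and are on the histone list, and Kif15 a mitotic kinesin. Hist1h2ap was at 372 CPM in dividing and 33.9 CPM in other FMD cells, and at 447 and 17.2 CPM in ad libitum cells. Ccl3, a chemokine gene, had 98 UMIs in dividing FMD cells and 2 in ad libitum ones, and 0 in the other cells of both libraries. It thus reached the minimum of 100 UMIs through FMD cells, and its place as higher in both libraries rests on 2 ad libitum UMIs. In dividing B-like cells the same rule gave housekeeping genes such as Gapdh and Actb, and no histone or kinesin gene. The rule asks for at least 100 UMIs in the called cells, which were only 13 FMD and 16 ad libitum cells here. Only abundant genes could reach that, so the lack of histone and kinesin genes is not read.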

How the data were processed

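Single-cell RNA was measured in CD45+ cells of 1 library per diet, each pooled from 4 mice. The submitters' processing notes name GRCm38 as the build and list Seurat 2.3.4, CASAVA 1.8 and Cell Ranger 3.1.0, with no role given; the file headers also carry version 3.1.0. The authors deposited raw UMI counts per gene and barcode, with no normalization. No strand setting is stated. On the other strand, 8 members overlap another gene of the tables, and Pcna has a listed pseudogene copy.

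Cells were kept with at least 200 genes and at most 20% mitochondrial UMIs. Scrublet (scanpy 1.11.5) called 0.02% of FMD and 0.0% of ad libitum cells and is taken as not having worked, so cells with at least 5 UMIs and 0.5 per 1000 of 2 marker panels were removed (121 FMD, 88 ad libitum). Leiden clustering used resolution 1, 15 neighbors, 30 components and 2000 variable genes without cell cycle genes, which gave 24 clusters and 13 named classes. Levels are summed UMIs over UMIs outside immunoglobulin and mitochondrial genes. With 1 library per diet no test was run: ratios carry exact conditional intervals, and a gene counts when it is 1.5-fold apart with at least 100 UMIs over both libraries. Neither per-gene length nor capture was corrected, so levels of different genes are not compared. The members and lists were chosen with earlier results of these data known. Genes named are all members, the 3 highest and 3 lowest of each other list (1 of these is not reported here), and the 10 highest non-listed genes in dividing cells of the class with the most dividing cells. The rule says the most numerous class with dividing cells, which can also be read as B-like cells, so both were computed. Intervals of UMI sums (scipy 1.17.1, numpy 2.4.6) were tested on simulated Poisson sums. These hold no single cells, so the check does not cover UMIs that gather in few cells. Alternatives covered the depth of thinning, the dividing threshold, filters on cells and genes, doublets, clustering with cell cycle genes or by a marker score (igraph 0.11.9 for clustering), the denominator and the cell with the most UMIs of a gene.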

Additional observations from a re-analysis of the deposited data

Results flagged for a closer look

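Several members had ratios of opposite sign in 2 cell classes, at least 2-fold apart and with at least 100 UMIs in each class; the differences were not tested, since each diet has 1 library. Between germinal center B-like and helper T-like cells the log2 ratios (FMD over ad libitum) differed by 1.94 for Rrm2 (0.52 and −1.42), by 1.05 for Mki67 (0.48 and −0.58) and by 1.04 for Stmn1 (0.43 and −0.61). CD8 T-like cells were the class on the high side in the others. For Top2a, helper T-like minus CD8 T-like cells came to −1.90 and regulatory T-like minus CD8 T-like cells to −1.65. For Stmn1 the differences from CD8 T-like cells were −1.80 in helper T-like, −1.49 in regulatory T-like and −1.33 in B-like cells. The CD8 T-like values for Top2a and Stmn1 were 0.38 and 0.00 without the top cell of each library.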

How the results depend on the processing

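No paired analysis was possible because each diet has 1 library, and no replicate could be left out. Under other settings 218 values of the main results stayed within their counting error or within 1.5 times, and 45 moved. The share of dividing cells in all kept cells had log2 ratios from −0.15 to 0.58 under the planned settings, so its sign changed. Without germinal center B-like cells, settings added after seeing the data, it was 0.02 with all UMIs (142 and 148 dividing cells), −0.51 at 1000 UMIs (8 and 12) and −0.69 when the remaining cells were thinned with a new random draw (10 and 17). Other filters on cells also draw anew. With cell cycle genes kept in clustering, the germinal center B-like share of the thinned dividing cells was 92.3% in FMD and 86.4% in ad libitum cells, since that cluster then took in dividing cells of other classes. Without germinal center B-like cells the members' median was −0.049.

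Numbers of members past the fold, main value first, moved as follows. In all kept cells the 2 higher became 5 with all UMIs as denominator or doublets kept, 1 without the top cell, and 0 when thinned, at 2-fold or without germinal center B-like cells, where the 0 lower became 6. In germinal center B-like cells the 4 higher became 0 when thinned or at 2-fold, 1 with cell cycle genes kept and 19 with a marker score per cell, and the 0 lower became 1 at 20 UMIs or with no filter. In B-like cells the 0 higher and 0 lower became 1 and 5 at 20 UMIs, and 3 and 6 with no filter. In Bhlhe41-led B cells they became 1 and 3, and 7 and 5. In helper T-like cells the 2 lower became 0 when thinned or with cell cycle genes kept, 1 with doublets kept or at 2-fold, 5 with a marker score, 6 at 20 UMIs and 7 with no filter, and the 0 higher became 1 with cell cycle genes kept. In regulatory T-like cells the 0 higher became 1 with cell cycle genes kept and 3 with either filter, and the 0 lower became 1 with a marker score, 2 at 20 UMIs and 9 with no filter. In CD8 T-like cells the 2 higher became 0 without the top cell, when thinned or with cell cycle genes kept, 5 at 20 UMIs and 13 with no filter, and the 0 lower became 2 with no filter.

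Among members past the fold, 3 values changed sign: Mcm4 in germinal center B-like cells was −0.65 when thinned, and Stmn1 with cell cycle genes kept was 0.37 in helper T-like and −0.23 in CD8 T-like cells. Thinning leaves few UMIs per member, so fewer members are read; the cause of the other moves was not tested. Among all members in all kept cells, past the fold or not, 12 of 36 changed sign when thinned, Top2a among them (−0.28), and 19 of 36 without germinal center B-like cells.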
